A study of Rattus norvegicus with 4 samples.

Results

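The genes described here are 10 markers of Kupffer cells, the resident macrophages of the liver. They are *Clec4f*, *Vsig4*, *Cd163*, *Marco*, *Timd4*, *Cd5l*, *C1qa*, *C1qb*, *C1qc*, and *Csf1r*. They were taken from the deposited tables by gene symbol, with rows of annotated genes longer than 200 base pairs and with the TPM values of rows that share a symbol added up. TPM is a level per transcript length and per library, so that levels can be set side by side between genes. By this rule, 9 of the 10 markers had a value among 16992 genes in all, and *Timd4* had none and is not analysed here.

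The livers came from 4 male Wistar rats of wild type genotype, 6 weeks old at purchase, with 1 rat and 1 RNA-seq library for each condition. Rats inhaled 4.5% sevoflurane or 6% desflurane, and food and water were withdrawn 2 hours before anesthesia. Each agent was given for 6 hours, or only until consciousness was lost, which was the control of that agent. The control rats had therefore also inhaled the agent, and neither control is an untreated liver. The 6 hour rats also went without food and water for longer than the controls, which cannot be told apart from the agent. RNA was prepared from the left lateral lobe as whole tissue, with the blood and all cell types in it. Because each condition has 1 rat, the difference between rats cannot be told apart from the effect of an agent, no test was possible, and no p-value is given. A gene is called lower or higher here when it had a TPM value above 2 in the higher library and differed more than 2-fold, which is the rule of the study.

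Kupffer cells line the sinusoids of the liver and take up bacteria, particles, aged red blood cells, and immune complexes from portal blood. They depend on signaling through the receptor encoded by *Csf1r*, and they are a main source of C1q, the recognition unit of the classical complement pathway. In rodents, *Clec4f*, which encodes a C-type lectin that binds galactose-type sugars, is restricted to these cells in the liver, and it is the most specific of the markers described here.

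All 9 markers were expressed in all 4 libraries, with TPM values from 12.7 (*Marco* after 6 hours of sevoflurane) to 190 (*C1qc* in the sevoflurane control) and average coverage over the exons from 21.6 to 342. The liver label was checked by *Alb*, which encodes albumin, with TPM values from 77519 to 92912. Groups of 4 TPM values stand for the control of sevoflurane, sevoflurane at 6 hours, the control of desflurane, and desflurane at 6 hours, in that order. Aligned sequence was between 4.47 and 5.40 gigabases per library, and factors from median-of-ratios scaling were between 0.963 and 1.05. The sevoflurane control stood apart in pancreatic enzyme genes. *Ctrb1*, a digestive protease precursor, had a TPM value of 8.94 there and was listed at 0 in the other 3 libraries, and the summed TPM of 10 pancreatic acinar genes was 63.0 there and between 16.3 and 18.9 in the others. Differences after 6 hours of sevoflurane are therefore also given against the desflurane control.

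Every marker was lower after 6 hours of sevoflurane than in its own control, and the size of the difference fell into separate ranges. *Cd5l*, *Marco*, and *Csf1r* were 2.72-fold, 2.56-fold, and 2.12-fold lower and passed the 2-fold rule, whereas the other 6 markers were between 1.34-fold (*Cd163*) and 1.58-fold (*Clec4f*) lower. Thus, 3 of 9 markers were called lower, compared with 3.38% of the 9531 genes that were high enough in the control to be called. With a limit of 1.5-fold, *Clec4f*, *C1qb*, and *C1qc* joined them to make 6 of 9, compared with 8.27% of genes. All 9 were lower by any amount, compared with 42.9% of the 9136 genes with TPM values above 2 in all 4 libraries. The median log2 change of the markers was -0.62, and that of the 9136 genes was 0.05. In bulk tissue, fewer Kupffer cells and less RNA of these genes per cell cannot be told apart.

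**Figure D1:**
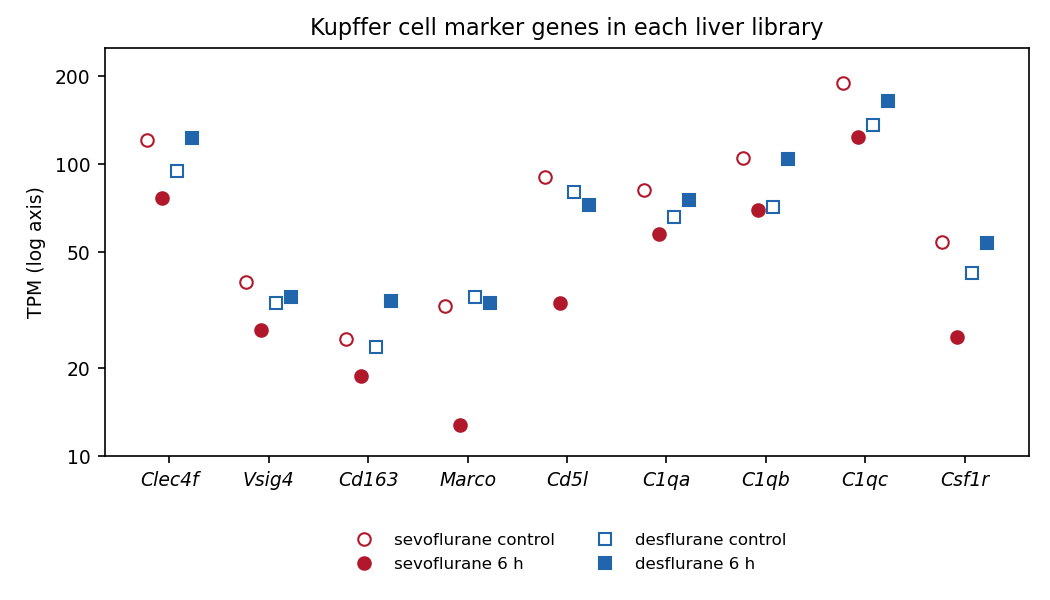
TPM values (log axis) of the 9 Kupffer cell markers in each of the 4 liver libraries, 1 rat per point, with open symbols for controls and filled symbols for 6 hours of anesthesia. The filled circle (sevoflurane 6 h) is the lowest of the 4 points for every gene, and it stands farthest from the others for *Marco* (12.7, the others from 32.6 to 35.0) and *Cd5l* (33.4, the others from 72.5 to 90.6).

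No marker passed the rule after 6 hours of desflurane. The highest difference was 1.46-fold (*C1qb*) and the lowest was 0.905-fold (*Cd5l*). Genes called higher by desflurane made up 2.84% of those that could be called, and genes called lower made up 1.53%. In this comparison 7 of 9 markers were higher by any amount, compared with 67.0% of all 9136 genes, and the 2 lower markers were *Marco* and *Cd5l*. The median log2 change was 0.28, beside 0.12 over all genes. After median-of-ratios scaling, which removes the shift of all genes, it was 0.15.

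Both controls gave the same direction with sevoflurane but not the same size. Against the desflurane control, all 9 markers were again lower after 6 hours of sevoflurane, compared with 40.6% of all genes, and the median was -0.31. Of these, *Marco* (2.74-fold) and *Cd5l* (2.40-fold) remained past the 2-fold rule and *Csf1r* (1.66-fold) did not, so that 2 of 9 were called, compared with 2.64% of genes. The controls themselves differed less than 2-fold for every marker, with a median of -0.30 for the desflurane control over the sevoflurane control and 8 of 9 markers lower in the desflurane control. Calls in either direction between the controls made up 2.34% of genes. Consequently, the desflurane median depended on the control: it was 0.28 against its own control and -0.015 against the sevoflurane control, where 6 of 9 markers were lower.

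**Figure D2:**
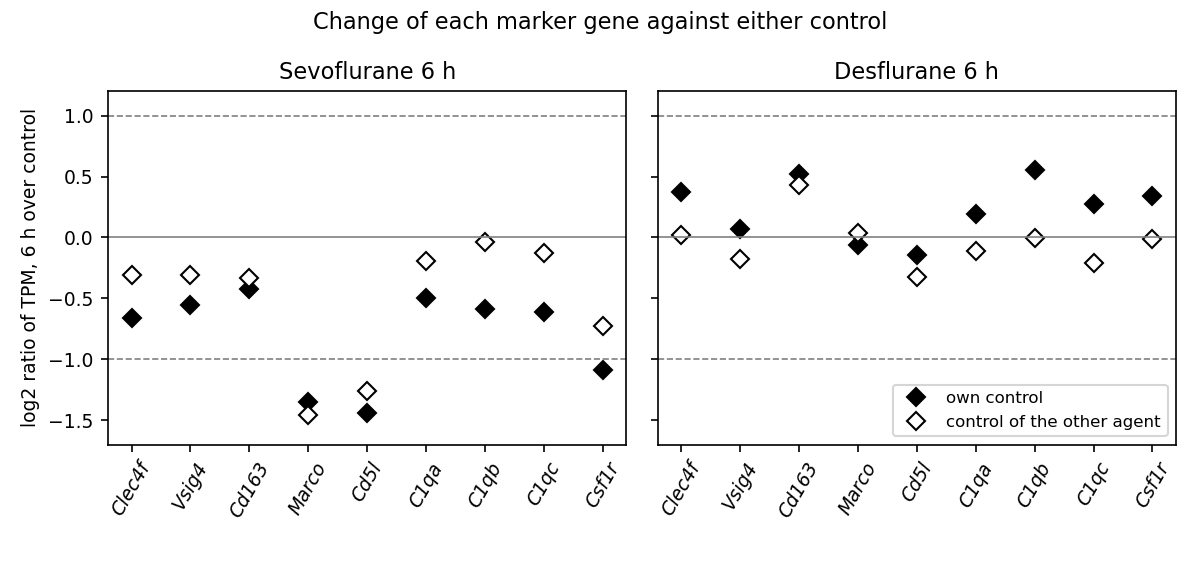
Log2 ratio of TPM values after 6 hours of sevoflurane (left) or desflurane (right) over a control, for each marker, with filled diamonds for the control of the same agent and open diamonds for the control of the other agent. Dashed lines mark 2-fold; only *Marco* and *Cd5l* lie below the lower line with both controls in the left panel, and no marker reaches a line in the right panel.

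The library after 6 hours of sevoflurane was the lowest of all 4 libraries for 9 of 9 markers, whereas it was the lowest for 25.9% of the 9136 genes. How far it lay below the rest was compared with the range of the other 3 libraries, a comparison chosen after the values had been seen. *Marco*, *Cd5l*, *Csf1r*, and *Vsig4* were further below the next library than the other 3 libraries were from each other, which makes 4 of 9 markers, compared with 8.54% of genes. For *Marco*, the gap was 2.56-fold and the range of the others was 1.07-fold. For *Cd5l*, these were 2.17-fold and 1.25-fold, and for *Csf1r* they were 1.66-fold and 1.28-fold. *Vsig4* was only just past its own range, with 1.24-fold and 1.18-fold. The remaining 5 markers varied more among the other libraries than the gap below them, most of all *C1qb*, with a gap of 1.02-fold and a range of 1.47-fold.

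**Figure D3:**
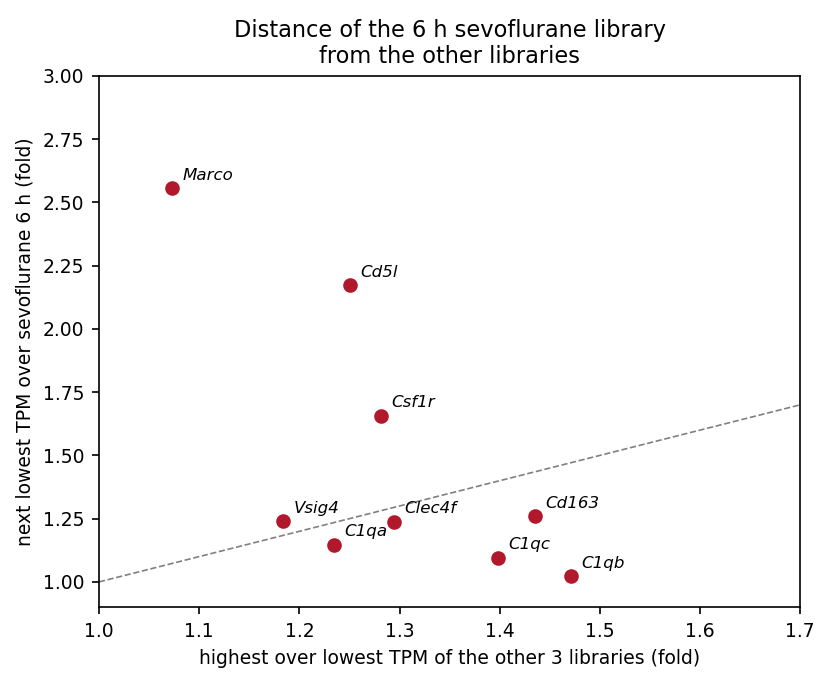
For each marker, the fold from the 6 hour sevoflurane library up to the next lowest library (vertical axis) against the fold between the highest and lowest of the other 3 libraries (horizontal axis). Points above the dashed line of equal folds are *Marco*, *Cd5l*, *Csf1r*, and *Vsig4*, and the other 5 markers lie below it.

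Among receptors that take up material from blood, *Marco* encodes a scavenger receptor with a collagen-like stalk that binds bacteria and inhaled or blood-borne particles. Its TPM values were 32.6, 12.7, 35.0, and 33.5. The library of the sevoflurane-anesthetized rat was low, and the other 3 lay within 1.07-fold of each other. The log2 change was -1.35 against its own control and -1.46 against the desflurane control, and 64 of the 9136 genes were as low or lower in the first of these comparisons (0.701%). *Marco* lies on chromosome 16 of rn6 (chr16:85115199-85147683, minus strand), as the files give it, and the RefSeq table of the later assembly places it on chromosome 13.

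*Cd163* encodes the receptor for hemoglobin bound to haptoglobin. Its TPM values were 25.2, 18.7, 23.6, and 33.9. The high library was the one after 6 hours of desflurane, and the low one that after sevoflurane. *Cd163* had a log2 change of -0.43 with sevoflurane, the smallest difference of the 9 markers from the own control. Against the desflurane control it was -0.33, and 5 other markers differed less. With desflurane it was 0.52 against its own control and 0.43 against the sevoflurane control, the largest value among the markers in the latter comparison. The gene spans chr4:156752093-156785467 on the plus strand of rn6.

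*Clec4f*, on the minus strand at chr4:115322300-115332021 of rn6, was measured at TPM values of 121, 76.5, 94.7, and 123. The low library was that after sevoflurane, but the desflurane control was closer to it than to the highest library. The log2 change with sevoflurane was -0.66, and it was -0.31 against the desflurane control. With desflurane, the difference from its own control was 0.37 and that from the sevoflurane control 0.02.

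*Vsig4* encodes a receptor for the complement fragments C3b and iC3b, through which Kupffer cells capture opsonized bacteria. Its TPM values were 39.5, 26.9, 33.4, and 35.0. The 3 libraries other than that after sevoflurane were close together. Sevoflurane gave a log2 change of -0.55, and it was -0.31 against the desflurane control. The change with desflurane was 0.07, which is below the shift of all genes with desflurane and became -0.06 after median-of-ratios scaling. *Vsig4* is at chrX:65370851-65400298 on the minus strand of rn6.

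The C1q genes encode the chains A, B, and C, which assemble together. *C1qb*, *C1qc*, and *C1qa* follow each other on the minus strand of chromosome 5, from position 155246444 to position 155264101 of rn6, a stretch of 17658 base pairs. The TPM values of *C1qa* were 81.4, 57.5, 66.0, and 75.4. Those of *C1qb* were 105, 69.7, 71.3, and 104, and those of *C1qc* were 190, 124, 136, and 165. In all 3 genes the order was the same, with the sevoflurane control highest, then the 6 hour desflurane library, then the desflurane control, and the 6 hour sevoflurane library lowest.

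The C1q genes were between 1.42-fold and 1.53-fold lower with sevoflurane against its own control, and between 1.02-fold and 1.15-fold lower against the desflurane control. *C1qb* and *C1qc* also differed most of the 9 markers between the controls, with log2 values of -0.56 and -0.48 for the desflurane control over the sevoflurane control, while that of *C1qa* was -0.30. The chains kept the same order of abundance in every library. The ratio of *C1qc* to *C1qa* TPM was 2.34, 2.16, 2.06, and 2.19, and that of *C1qb* to *C1qa* was 1.29, 1.21, 1.08, and 1.39.

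*Cd5l* encodes a secreted scavenger protein of macrophages that circulates bound to IgM. Its TPM values were 90.6, 33.4, 80.0, and 72.5. The library after sevoflurane was far below the other 3, which did not reach down to it. The log2 change with sevoflurane was -1.44, the largest difference of the 9 markers, and 55 of the 9136 genes were as low or lower (0.602%). Against the desflurane control it was -1.26. With desflurane, *Cd5l* was lower than either control, at -0.14 and -0.32. It lies at chr2:186685104-186696117 on the plus strand of rn6.

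*Csf1r* encodes the receptor tyrosine kinase for the growth factors Csf1 and Il34, on which the survival of tissue macrophages depends. Its TPM values were 54.3, 25.6, 42.4, and 53.7. The sevoflurane control and the 6 hour desflurane library were level, the desflurane control was between, and the 6 hour sevoflurane library was low. The log2 change with sevoflurane was -1.09, with 147 of the 9136 genes as low or lower (1.61%), and it was -0.73 against the desflurane control, which is under 2-fold. With desflurane it was 0.34 against its own control and -0.01 against the sevoflurane control. The gene is at chr18:56431891-56458300 on the plus strand of rn6.

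The upstream bases of the 3 markers past the 2-fold rule, and of the neighboring genes *C1qa* and *C1qb*, which kept the same order of libraries, are shown to let the letters before each start be read next to the values. They are the 250 bases before the annotated start, 5′ to 3′ on the strand of the gene, from the RefSeq promoter windows of GRCr8, a later assembly than that of the files. Windows were found for 8 of the 9 markers. Capitals mark exact matches, on either strand, to 4 short motifs: GAGGAA (the core bound by PU.1), GAAANNGAA (the core of the interferon response element), TGCTGA (an element bound by MAF proteins), and TCATGTG (the M-box bound by MITF and TFEC). The runs are *Marco* at chr13:34201256-34201505 (minus strand), *Cd5l* at chr2:175088665-175088914 (plus strand), *Csf1r* at chr18:56834129-56834378 (plus strand), *C1qa* at chr5:154419934-154420183 (minus strand), and *C1qb* at chr5:154407828-154408077 (minus strand).
*Marco*: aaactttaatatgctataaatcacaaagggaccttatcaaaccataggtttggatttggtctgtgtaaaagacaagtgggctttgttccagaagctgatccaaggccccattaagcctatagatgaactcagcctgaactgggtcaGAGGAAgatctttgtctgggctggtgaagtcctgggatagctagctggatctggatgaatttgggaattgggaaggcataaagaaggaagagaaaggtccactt
*Cd5l*: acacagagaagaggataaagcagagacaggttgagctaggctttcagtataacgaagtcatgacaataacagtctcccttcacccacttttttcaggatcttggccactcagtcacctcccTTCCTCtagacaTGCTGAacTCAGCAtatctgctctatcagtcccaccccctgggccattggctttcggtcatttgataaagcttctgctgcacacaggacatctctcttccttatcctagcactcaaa
*Csf1r*: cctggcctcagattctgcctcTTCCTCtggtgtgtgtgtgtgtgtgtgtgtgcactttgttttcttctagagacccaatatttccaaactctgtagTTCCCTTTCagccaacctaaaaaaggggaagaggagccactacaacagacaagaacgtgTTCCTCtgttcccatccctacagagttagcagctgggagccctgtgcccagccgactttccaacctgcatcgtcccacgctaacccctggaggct
*C1qa*: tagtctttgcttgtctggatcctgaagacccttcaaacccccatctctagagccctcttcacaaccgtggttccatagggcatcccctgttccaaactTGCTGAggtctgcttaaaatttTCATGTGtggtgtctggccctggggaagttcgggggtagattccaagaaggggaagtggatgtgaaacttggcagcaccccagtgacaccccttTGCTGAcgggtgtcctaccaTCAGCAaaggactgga
*C1qb*: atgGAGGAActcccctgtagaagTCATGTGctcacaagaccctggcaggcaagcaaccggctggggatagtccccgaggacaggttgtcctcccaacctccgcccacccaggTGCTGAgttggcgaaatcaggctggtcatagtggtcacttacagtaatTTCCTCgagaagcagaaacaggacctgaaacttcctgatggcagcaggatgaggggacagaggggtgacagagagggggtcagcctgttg

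All 3 markers past the 2-fold rule held GAGGAA in the window of 300 bases around the start, as did *C1qb*. These were 4 of 8 markers, and 27.6% of 33469 windows held it. The matches lay 104 bases before the start in *Marco*, 129 bases in *Cd5l*, and 229 and 95 bases in *Csf1r*, counted to the leftmost base of the match. TGCTGA was found in *Vsig4*, *Cd5l*, *C1qa*, and *C1qb*, again 4 of 8 markers, compared with 18.4% of windows. In *Cd5l* a pair of these matches faced each other on opposite strands, 117 and 109 bases before the start. TCATGTG was found in *C1qa* and *C1qb* (3.56% of windows) and GAAANNGAA in *Csf1r* (9.71% of windows). A match is a description of the letters, and binding was not measured. No motif was held by all 3 markers past the rule and by no other marker, since *C1qb* also holds GAGGAA and changed less.

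Set against *Clec4f* in the same library, a marker under the 2-fold rule, 3 of the other 8 markers were lower after sevoflurane than in the other libraries. The ratio of *Marco* to *Clec4f* TPM was 0.269, 0.167, 0.369, and 0.273 in the order of the libraries used for TPM values. That of *Cd5l* was 0.748, 0.436, 0.845, and 0.591, and that of *Csf1r* was 0.448, 0.334, 0.447, and 0.438. The library after sevoflurane was the lowest in each of these ratios. *Cd5l* also had a lower ratio after desflurane than in either control. In contrast, the ratio of *Vsig4* was 0.326, 0.352, 0.352, and 0.285, and those of *Cd163* and of *C1qa*, *C1qb*, and *C1qc* were each higher after sevoflurane than in its own control. The share of the summed TPM of the 9 markers taken by *Cd5l* was 12.2% in the sevoflurane control and 7.49% after sevoflurane, while the share of *C1qc* was 25.7% and 27.9%. Thus, the ratios between markers were not the same in these 2 livers. The 3 markers with lower ratios are those past the 2-fold rule, and how far such ratios vary between rats is unknown.

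**Figure D4:**
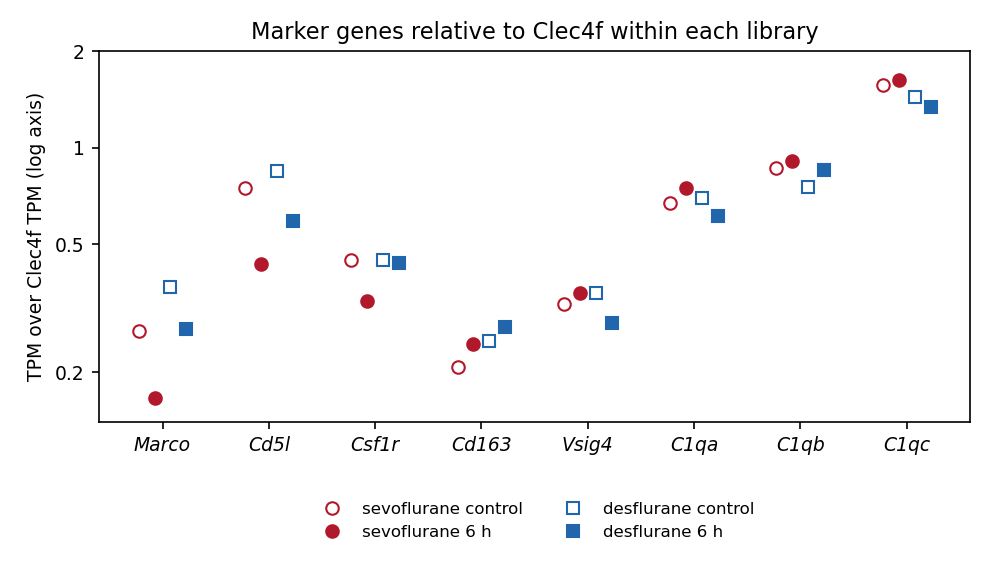
TPM value of each marker divided by that of *Clec4f* in the same library (log axis), with open symbols for controls and filled symbols for 6 hours of anesthesia, 1 rat per point. The filled circle (sevoflurane 6 h) is below the other 3 points for *Marco*, *Cd5l*, and *Csf1r* and above or among them for the other 5 genes.

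Compared directly, the library after 6 hours of desflurane was higher than that after 6 hours of sevoflurane in all 9 markers, with a median log2 difference of 0.68 (all genes 0.06). *Marco* (2.63-fold), *Cd5l* (2.17-fold), and *Csf1r* (log2 difference 1.07) passed the rule, compared with 2.80% of genes called higher in this comparison. The smallest differences were those of *Vsig4* (1.30-fold) and *C1qa* (1.31-fold). These comparisons share the same 4 libraries, so that the low values after sevoflurane enter each of them.

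Of 32 other genes of macrophages, 6 were called lower with sevoflurane and the median of the 30 genes above the limit was -0.68. Over all genes high enough to be called, 3.38% were called lower against the own control and 2.64% against the desflurane control. These are the shares for each list that follows, but the list totals also include genes too low to be called. These 6 were *Adgre1*, which encodes the macrophage surface protein F4/80 (16.1 in the control and 7.29 after sevoflurane), *Tyrobp*, an adaptor of activating receptors (48.9 and 22.8), *Aif1* (40.1 and 18.9), the cytokine gene *Il18* (12.5 and 5.92), and the Fc receptor genes *Fcgr1a* (10.03 and 4.04) and *Fcgr3a* (12.9 and 3.01). Against the desflurane control, 1 of them (*Fcgr3a*) was called and the median was -0.30. The most abundant genes of this list were the lysosomal protease genes *Ctsc* (412, 326, 397, and 358) and *Ctss* (98.4, 52.7, 68.1, and 94.5), and *Nr1h3*, which encodes the oxysterol receptor LXR alpha (87.2, 99.2, 96.0, and 80.8). Macrophage genes were not all lower with sevoflurane. *Hmox1*, which encodes heme oxygenase and was named after its values were seen, had the highest log2 change of the list (27.1 in the control and 45.3 after sevoflurane), and hepatocytes can express it. With desflurane, the median was 0.05, and 1 gene, *Hpgd*, was called (1.57 in the control and 3.70 after desflurane). Against the sevoflurane control, the desflurane median was -0.19 (all genes 0.10), with 22 of 30 genes lower. There, 2 genes were called lower, *Fcgr3a* and *Lyz2*, compared with 156 of the 9531 genes high enough to be called. The direction with desflurane thus depended on the control in this list too.

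The partners of the markers were read from lists of their own. In the *Csf1r* pathway, 2 of 11 genes were called lower with sevoflurane, *Tyrobp* and the phospholipase gene *Plcg2* (3.77 and 1.87). The most abundant other genes were *Grb2*, an adaptor (37.8, 34.0, 31.9, and 39.3), and *Spi1*, which encodes PU.1 (22.0, 11.2, 14.3, and 12.0). The ligand gene *Csf1* had TPM values of 8.95, 5.53, 7.33, and 8.10, with the library after sevoflurane lowest, and the ligand gene *Il34* had 2.95, 3.61, 2.59, and 3.16, both named after their values were seen. Neither *Tyrobp* (log2 change -0.59) nor *Plcg2* (-0.24) nor any other gene of the list was called against the desflurane control, where the median was -0.38 instead of -0.75. No gene of this list was called with desflurane against its own control.

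Among 17 genes of the C1 complex, the complement components that follow it, and their receptors, 2 were called lower with sevoflurane (median -0.28) and none with desflurane against their own controls. *C1s*, which encodes a protease of the C1 complex, was at 423, 199, 360, and 348. *Itgam*, a subunit of complement receptor 3, was at 4.29, 0.94, 2.85, and 2.61. With the desflurane control, *Itgam* was called (-1.59), *C1s* was not (-0.85), and the median was -0.10. *C1r*, the other protease of C1, was at 640, 370, 521, and 513, under the 2-fold rule, and was named after its values were seen. C1r and C1s are made mainly by hepatocytes. The abundant *C3* (5703, 5025, 6407, and 5945) and *Serping1* (809, 677, 724, and 824) differed less than 2-fold throughout.

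Partners of *Cd163* in the handling of hemoglobin and heme gave 0 calls among 12 genes with either agent, and the sevoflurane median was 0.05 (0 calls and 0.07 against the desflurane control). *Hpx* (4815, 4357, 5747, and 5201) and *Hp* (4665, 4487, 4346, and 5285) encode hemopexin and haptoglobin, and *Ftl1* (3081, 4187, 3606, and 3563) encodes the ferritin light chain. Likewise, 0 of 12 genes for the uptake of apoptotic cells, the process in which Timd4 acts, were called with either agent against its own control (medians -0.02 and 0.18). The most abundant of these were *Pros1* (135, 138, 134, and 152), *Timd2* (88.3, 91.7, 97.9, and 107), and *Gas6* (46.0, 29.9, 63.3, and 37.5), and *Gas6* was called lower after sevoflurane against the desflurane control.

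Genes of other cell types moved with the markers in part, and their part in the result was not tested. Genes common to all leukocytes had a median of -0.80 with sevoflurane, and 3 of 12 were called lower. These were *Ptprc*, which encodes CD45 (13.7, 4.11, 9.24, and 10.9), *Cd53* (15.4, 5.81, 10.5, and 11.8), and *Rac2* (29.6, 8.74, 21.4, and 17.8). The median against the desflurane control was -0.41, and *Ptprc* and *Rac2* were called but *Cd53* was not (-0.86). With desflurane, the median was -0.11 against its own control and -0.38 against the sevoflurane control, with 0 calls in both. In the latter comparison, 10 of 11 genes were lower. The summed TPM of this list was 153, 78.5, 118, and 112, and the library after sevoflurane was the lowest for 11 of 11 genes above the limit. The summed TPM of the markers was 740, 445, 583, and 696. The order of the libraries was not the same in both, since the markers were higher after desflurane than in its control and the leukocyte list was slightly lower. Kupffer cells can also express genes of the leukocyte list, and which cells this RNA came from was not measured.

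Of lymphocyte genes, 5 of 14 for T and NK cells and 1 of 6 for B cells were called lower with sevoflurane. No gene of either list was called with desflurane. Only 3 of the 14 and 0 of the 6 were above the limit in all 4 libraries. Of the B cell genes, only *Cd79b* (2.89) was above it in the sevoflurane control, so the others could not be called lower there. Summed TPM values were from 29.6 to 46.8 and from 3.08 to 7.83. Much of the T and NK cell sum was *Cd4* (19.1, 18.3, 21.8, and 23.3), which was not called. Against the desflurane control, 1 of the 14 T and NK cell genes (*Cd8a*) and 0 of the 6 B cell genes were called lower after sevoflurane. In the monocyte list, 2 of 11 genes were called lower with sevoflurane (*Itgam* and *Ly6c*). *Ly6c* was at 15.1, 2.68, 5.21, and 4.69, so that it was also called lower in the desflurane control than in the sevoflurane control, and it was not called after sevoflurane against the desflurane control (-0.96). The defining genes *S100a8* and *S100a9*, named after their values were seen, were below a TPM value of 2 in every library. None of 10 neutrophil genes was above the limit in all 4 libraries (summed TPM from 2.04 to 5.73). None of 9 dendritic cell genes was called after 6 hours of either agent against either control. Only 2 of them were above the limit in all 4 libraries. Between the controls, *Batf3* was called lower with desflurane (1.07) than with sevoflurane (2.14). Red blood cell genes had medians of -0.44 with sevoflurane and -0.88 with desflurane, with 1 of 7 called lower with each agent. Against the sevoflurane control, the desflurane median was -1.20 and 5 of 7 were called lower. When the desflurane control was used, the sevoflurane median was -0.09, none was called lower, *Ahsp* was called higher, and *Alas2*, the gene called lower with sevoflurane, was at 0.06. Their summed TPM was 124, 87.4, 91.6, and 52.6, so that it was lowest after desflurane, the library in which 7 of 9 markers were above their own control. Of 10 pancreatic acinar genes, 8 were called lower with sevoflurane against its own control and 0 against the desflurane control.

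Genes of the other resident cells of the liver were not called against the own control of either agent. Sinusoidal endothelial cells, which share the sinusoids with Kupffer cells, had a median of -0.09 with sevoflurane and 0.20 with desflurane, and 0 of 12 genes were called. Stellate cell genes had medians of 0.04 and 0.09 (0 of 10 called), with single genes from -0.88 to 0.55 with sevoflurane and from -0.48 to 0.84 with desflurane, and *Pdgfrb* was called lower after sevoflurane against the desflurane control. In addition, hepatocyte genes had medians of -0.08 and 0.11 (0 of 12 called). None of 5 bile duct genes and none of 5 platelet genes was called, but only 2 and 1 of them were above the limit in all 4 libraries. The 2 bile duct genes above the limit had a median of -0.56 with desflurane. The library after sevoflurane was the lowest of the 4 for 22 of 30 macrophage genes, 7 of 12 endothelial genes, 3 of 10 stellate cell genes, and 4 of 12 hepatocyte genes.

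**Figure D5:**
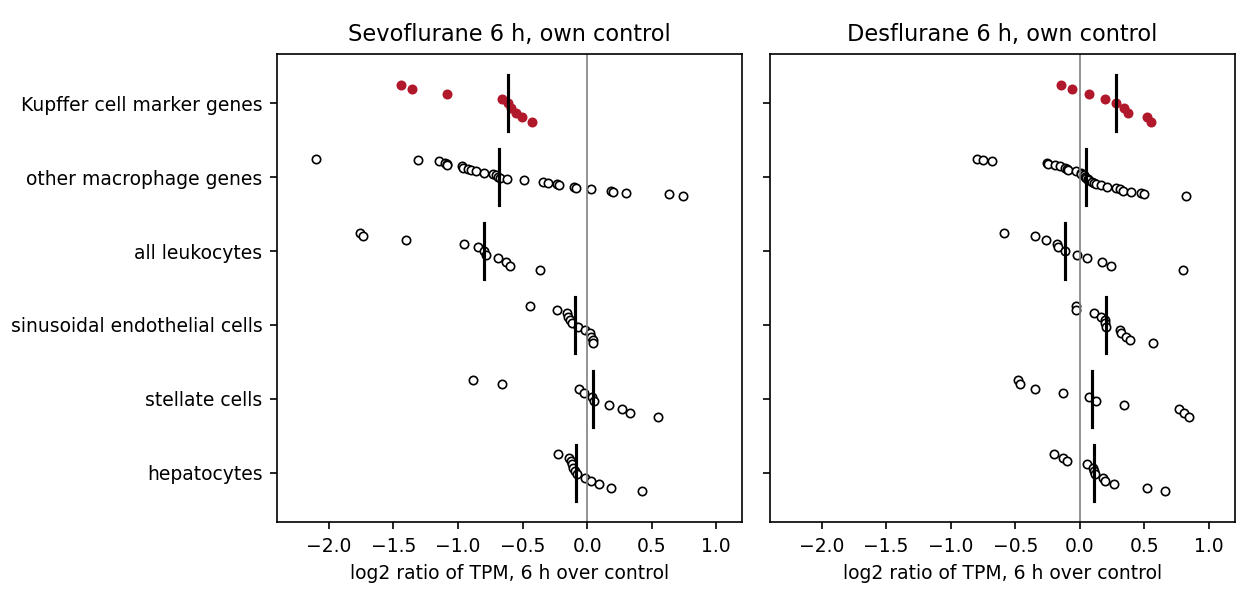
Log2 ratio of TPM values after 6 hours over the control of the same agent for genes of 6 lists, with 1 point per gene above the limit in all 4 libraries and a vertical bar at the median; the height of a point within its row only orders the genes. With sevoflurane the medians of the markers (-0.62), other macrophage genes (-0.68), and genes of all leukocytes (-0.80) lie below those of endothelial, stellate, and hepatocyte genes (-0.09, 0.04, and -0.08).

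The pattern of the markers over the 4 libraries was compared with that of every other gene by the root mean square difference of log2 TPM values, each gene centered on its own mean. The average of the markers on this centered log2 scale was 0.28, -0.52, 0.00, and 0.24 in the order of the libraries. The nearest genes were *Tnfaip8l2*, which encodes a negative regulator of innate immunity (distance 0.01), the parathyroid hormone receptor gene *Pth1r* (0.03), *Rasgrp3*, which encodes an activator of Ras proteins (0.03), *Slc44a4* (0.04), and *Smagp* (0.04). Among the markers, *Clec4f* was nearest to the average at 0.08 and *Marco* farthest at 0.33. As many as 254 genes that are not markers were within the median distance of the markers, 0.16, so that the pattern was not particular to them. With 4 libraries, likeness in this measure is a description.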

How the data were processed

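RNA-seq of 4 rat livers (1 library per condition) was used. The authors trimmed reads with sickle, mapped them to rn6 with HISAT2, sorted them with SAMtools, and ran StringTie with the refGene annotation. The deposited tables give average coverage (signal over exons) and FPKM values, normalized by the authors for library size. The deposited TPM values are a signal scaled so that the assembled rows add up to 1000000, and the annotated rows, on the same scale, add up to between 779824 and 813454. The files give no read counts, so that the precision of single values is unknown apart from the coverage. The labels and the methods name different Illumina library kits.

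Annotated rows longer than 200 base pairs were used, and TPM values were added up per symbol. Log2 ratios were made without a pseudocount. The markers, 18 other gene lists, and the tests were chosen with earlier results of these data known. Named genes are all markers, the 3 most abundant genes and the genes past the 2-fold rule of the lists described in full, and the 5 nearest genes; others are marked. Of the lists of lymphocytes, red blood cells, pancreas, and the other cell types, few or no genes are named. A few genes that it would name are left out here. Median-of-ratios factors were made from the 9136 genes with TPM values above 2 in all libraries. Motifs were searched in 33469 RefSeq promoter windows of 300 bases. Alternatives covered scaling, FPKM, row choice, TPM and fold limits, a pseudocount of 1, and the control. Python 3.11.15, numpy 2.4.6, and pandas 2.3.3 were used. Tested on simulated data for each 6 hour comparison with its own control (16992 genes, 200 changed 4-fold), the rule recovered 200 genes with 0 false calls. The simulated noise was small and the changed genes were well above the TPM limit, so this outcome was fixed and checks only the code. It does not measure false calls between rats. Between the real controls, 2.34% of genes passed the rule.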

Additional observations from a re-analysis of the deposited data

Results flagged for a closer look

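For 7 of the 9 markers, the library after 6 hours of sevoflurane was below its own control while the library after 6 hours of desflurane was above its own control. Of the 9136 genes, 24.7% did the same, and with the controls exchanged between the agents it held for 3 of 9 markers and 21.5% of genes. The difference between both log2 changes (desflurane minus sevoflurane) was 1.03 for *Clec4f*, 0.62 for *Vsig4*, 0.95 for *Cd163*, 0.69 for *C1qa*, 1.14 for *C1qb*, 0.89 for *C1qc*, and 1.43 for *Csf1r*. These differences were not tested, because each condition has 1 rat. With the controls exchanged between the agents, the same differences were 0.33, 0.13, 0.76, 0.09, 0.03, -0.07, and 0.71. Of these 7 markers, only *Cd163* and *Csf1r* kept a difference above 0.5 log2 units. *Marco* and *Cd5l* are not among the 7, because both were below the own control with either agent. Against the other agent's control, *Marco* had log2 changes of -1.46 with sevoflurane and 0.04 with desflurane. Those of *Cd5l* were -1.26 and -0.32, so the low values of both after sevoflurane did not depend on the control. For *Vsig4*, the value with desflurane (0.07) was below the shift of all genes.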

How the results depend on the processing

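Among the values that answer a comparison, 61 kept their direction and stayed within the limits used (1.5 times for a count, 0.1 for a log2 value), 7 moved, and 1 reversed. Many of the 61 could not change. Every marker has 1 row, is longer than 200 base pairs, and has TPM values of at least 12.7. Dropping the length filter, taking the largest row, and TPM limits of 1 and 5 therefore gave identical values. A fold limit cannot move a median. At the edge of these limits, 2 markers instead of 3 were called lower with sevoflurane against the other agent's control and the mean of both controls, and 3 instead of 2 were lower with desflurane after median-of-ratios scaling, with FPKM, and with the mean of both controls. Against the other agent's control, the sevoflurane median was -0.31, the desflurane median reversed to -0.015, and 6 markers instead of 2 were lower with desflurane. With the mean of both controls, the medians were -0.44 and 0.032. Median-of-ratios scaling gave a desflurane median of 0.15. A fold limit of 1.5 called 6 markers lower with sevoflurane (8.27% of genes). *Csf1r* was under 2-fold against the other agent's control (-0.73) and with the mean of both controls (-0.92), and *Marco* and *Cd5l* were past it with every control. As a share of the summed TPM of the markers, the sevoflurane log2 changes were -0.62 for *Marco*, -0.71 for *Cd5l*, and -0.35 for *Csf1r*, and between 0.07 and 0.31 for the other 6. With a TPM limit of 10, 106 instead of 254 genes were within the median distance of the markers. Unannotated rows were not added to the markers, an alternative that was not run, since the assembled rows repeat the same values (identical in 22 of 36 pairs of marker and library, ratios from 0.981 to 1.26). Assembled rows in place of annotated ones, chosen after seeing the data, left the counts and medians as they were within the limits used. With them, the log2 change of *Cd163* with sevoflurane was -0.59 in place of -0.43. It was then no longer the smallest of the markers, since that of *C1qa* was -0.50. No paired analysis was possible because each group has 1 library and the labels give no replicate numbers.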
